A study of Rattus norvegicus with 23 samples.

Results

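Healthy adductor muscle was compared with healthy median nerve in 8 of the 23 RNA-seq libraries of the series, 3 from muscle and 5 from nerve. The libraries were chosen by their labelled tissue, and all 32545 gene rows of the count table entered. The series studied how a cut median nerve regenerates through a muscle-in-vein graft, a vein conduit filled with muscle, in adult female rats. Both tissues came from animals labelled WT, with no treatment, at day 0, and the labels name no strain. The other libraries were healthy epigastric vein (n = 3) and 12 repaired nerves. The repaired nerves were labelled EV or MIV, at day 3 or day 7, with n = 3 in each of these groups. No label says that libraries of a tissue came from separate animals, so the tests measure the spread between libraries, which may be technical. The edgeR tests pool that spread over the groups of all 23 libraries.

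Skeletal muscle is built mainly of long multinucleate fibres packed with sarcomeres, the repeating units of actin and myosin filaments that shorten when calcium is released. The fibres spend much of their messenger RNA on contractile proteins and on the enzymes that supply ATP. A peripheral nerve holds axons, but the neuronal cell bodies lie outside it, so its RNA comes largely from Schwann cells, which wrap the axons and make myelin, and from fibroblasts, perineurial cells, endothelial cells and immune cells. A whole muscle also contains nerve branches, vessels and connective tissue. In bulk RNA, fewer cells of a type and less RNA per cell cannot be told apart.

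The table lists Ensembl rat gene identifiers, and 0 of the 32545 could be paired with a symbol in the gene table used here. The labelled tissues were therefore not checked against defining markers, and the results describe groups of genes set by level, with 2 identifiers in each direction. No sequences are printed for the same reason.

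Library totals ran from 13369080 to 17314324 counts in muscle and from 13602942 to 16431590 counts in nerve. On the log2 CPM scale (CPM, counts scaled to the library size times its TMM factor, with a prior count of 2), muscle libraries correlated with each other at 0.964 to 0.970 across genes and nerve libraries at 0.976 to 0.980. A muscle and a nerve library correlated at 0.698 to 0.705. The first principal component of the 8 libraries held 87.8% of the variance and placed muscle at -193.3 to -187.2 and nerve at 113.2 to 114.9, with no library between. The second held 3.45% and spread the muscle libraries from -64.2 (replicate 2) to 49.4 (replicate 1), while nerve stayed within -1.85 to 4.33.

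Muscle concentrated its counts in few genes. The single most counted gene took 7.95% ± 0.722 (SD, n = 3) of a muscle library and 3.87% ± 1.15 (SD, n = 5) of a nerve library. It was the same gene in all 3 muscle libraries, and another gene, again the same throughout, in all 5 nerve libraries. The 10 most counted genes of each library took 29.1%, 28.0% and 27.4% of the counts in muscle replicates 1 to 3, against 11.8%, 11.6%, 13.4%, 12.0% and 15.9% in nerve replicates 1 to 5. The 100 most counted held 59.2% ± 0.476 (SD, n = 3) of them in muscle libraries, against 29.2% ± 1.56 (SD, n = 5) in nerve libraries. Every muscle library was above every nerve library in each of these measures.

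Reaching 50% of the counts took 42, 41 and 44 genes in the muscle libraries, against 634, 653, 566, 634 and 532 genes in the nerve libraries. The effective number of genes, the number of equally counted genes with the same entropy, was 584 ± 13.1 (SD, n = 3) in muscle and 2842 ± 261 (SD, n = 5) in nerve. Each of the 8 measures of concentration and detection gave a two-sided exact permutation p of 0.0357, the smallest that 3 against 5 libraries can give (adjusted p = 0.0357 over the 8).

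**Figure D1:**
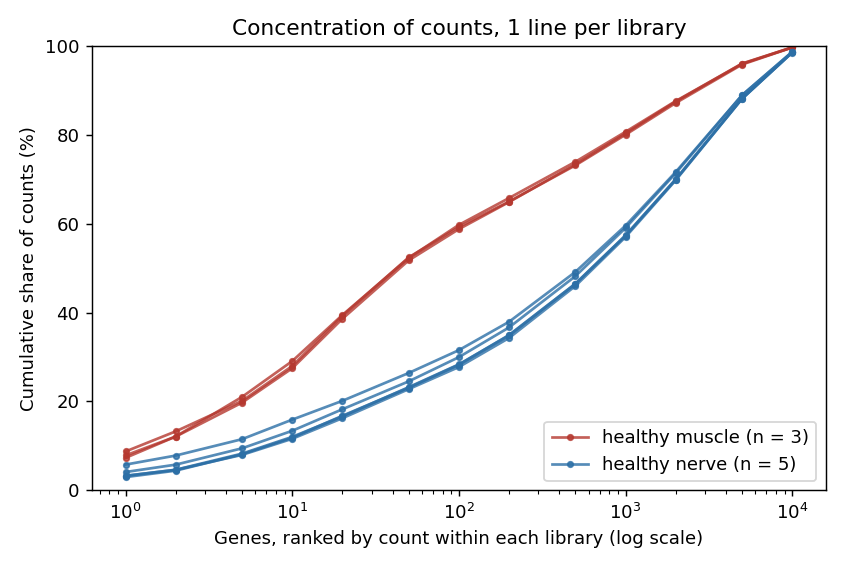
Cumulative share of counts (%) against the rank of the gene within its library (log scale), with 1 line per library for healthy muscle (n = 3) and healthy nerve (n = 5). The muscle lines lie above the nerve lines at every rank plotted up to 10000, and pass 50% at 41 to 44 genes, against 532 to 653 genes in nerve.

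Fewer genes were detected in muscle. At least 1 count was found for 15750, 15496 and 15567 genes in the muscle libraries, against 17943, 18023, 17543, 17804 and 17828 genes in the nerve libraries. With every library thinned to 13369080 counts, the expected numbers were 15488 ± 232 (SD, n = 3) in muscle and 17733 ± 131 (SD, n = 5) in nerve. With the 100 most counted genes of each library left out and the rest thinned to 5385209 counts, muscle had 15376 ± 244 (SD, n = 3) and nerve 16980 ± 115 (SD, n = 5). The difference was then -1604 genes, against -2224 before thinning, and the libraries of the 2 tissues still did not overlap.

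Of the 32545 genes, 16754 had a count in both tissues, 555 in muscle alone, 3776 in nerve alone and 11460 in neither. The nerve libraries together hold 73474659 counts and the muscle libraries 45226140, so a count of 0 throughout is easier to reach in muscle. At least 1 CPM was present in every library of both tissues for 11023 genes. A set of 164 genes stood at 10 CPM or more in every muscle library and under 1 CPM in every nerve library, and 157 genes showed the opposite pattern. On CPM of the library total, with no scaling factor, these sets numbered 120 and 322.

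The level of each gene was tested with edgeR's quasi-likelihood test in a fit of all 23 libraries, with Benjamini-Hochberg adjustment over the 15954 genes tested and a threshold of 0.05. The filter on low counts also used all 23 libraries, so some genes near 0 in both tissues were tested. With the 8 muscle and nerve libraries alone, 14397 genes were tested, with 5106 called higher in muscle and 5675 lower. As background for the groups below, 67.3% of genes were called, 5024 higher in muscle (31.5%) and 5716 lower (35.8%). Against a threshold of 2-fold (edgeR's glmTreat), 39.2% were called, 2766 higher in muscle (17.3%) and 3489 lower (21.9%). For 66.8% of genes the libraries of the 2 tissues did not overlap, 30.7% with muscle above and 36.1% with muscle below. Of the genes called against no change, 659 had overlapping libraries. Over the genes tested, log2 fold changes had a median of -0.19 and quartiles of -1.57 and 0.92.

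The split between higher and lower calls depended on the scaling. TMM factors were 0.410 to 0.421 in muscle and 1.03 to 1.10 in nerve, so the CPM of a muscle gene on this scale is higher than its CPM of the library total. Higher calls made up 46.8% of all calls with these factors. Beyond 2-fold they made up 44.2%. They made up 14.5% of all calls (12.1% beyond 2-fold) with library sizes alone, when the median log2 fold change moved by -1.36, and 59.1% (58.1% beyond 2-fold) with TMM factors from genes that are not muscle-enriched, when it moved by 0.39. A gene counted as muscle-enriched where edgeR called it in muscle over nerve and over vein, each time by more than 2-fold in the estimate. Leaving out genes chosen this way raises muscle relative to nerve, so the direction of that shift was set by the choice. Nerve-enriched genes were set by the same rule against muscle and vein. With both groups left out (2842 muscle-enriched and 1485 nerve-enriched), higher calls made up 54.4% of all calls (52.7% beyond 2-fold). The median log2 fold change then moved by 0.23. Directions of genes with small fold changes, and the numbers called beyond 2-fold, are therefore relative to the TMM scale.

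**Figure D2:**
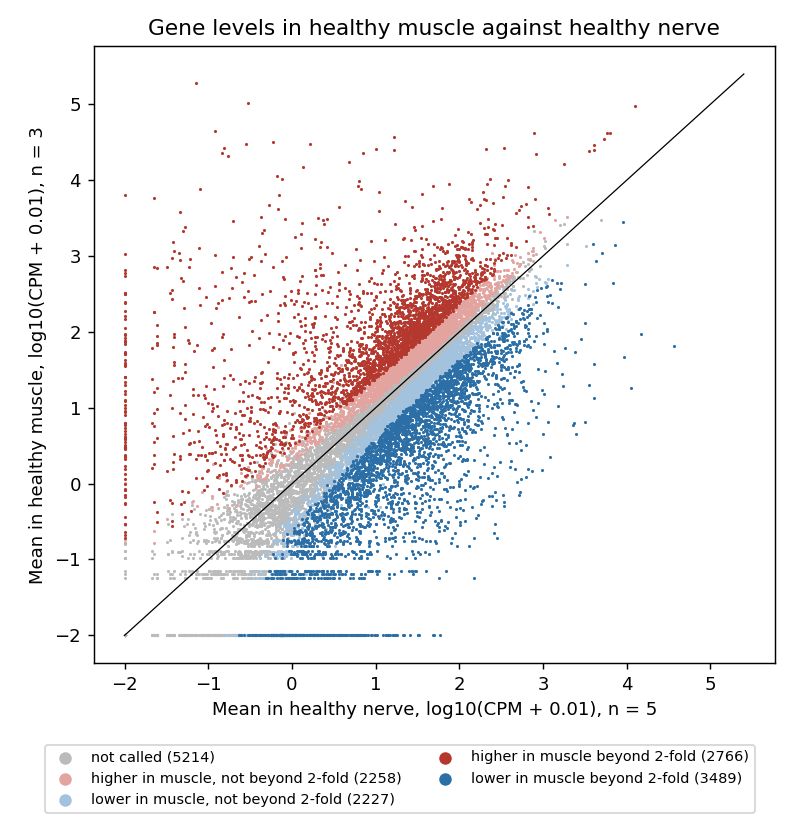
Mean level of each of the 15954 genes tested, as log10(CPM + 0.01), in healthy muscle (vertical axis, n = 3) against healthy nerve (horizontal axis, n = 5), coloured by the edgeR call. The diagonal line marks equal levels. The 2766 genes called higher in muscle beyond 2-fold lie above the line and the 3489 called lower beyond 2-fold lie under it, and the row and column of points at -2 are genes at 0 in 1 tissue.

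On the TMM scale, genes higher in muscle were fewer and included more of the very large differences. Which direction has more calls depends on that scale, as given above. Among the calls, 3460 genes were more than 2-fold higher in muscle and 4578 more than 2-fold lower. Beyond 16-fold the numbers were 647 higher and 1103 lower, and beyond 64-fold 355 higher and 538 lower. Beyond 256-fold they were 229 higher and 179 lower, and beyond 1024-fold 147 higher and 30 lower. Genes at 0 in all libraries of 1 tissue have a fitted fold change that depends on the prior count: 89 genes called higher had 0 counts in nerve and 373 called lower had 0 in muscle. With these genes set at their bound (3 counts over the tissue at 0), 638 were higher and 825 lower beyond 16-fold, 338 and 243 beyond 64-fold, 202 and 72 beyond 256-fold, and 130 and 4 beyond 1024-fold. At these bounds the lower genes outnumbered the higher ones up to 16-fold, and the higher genes did so from 64-fold up. Beyond 64-fold this order is the reverse of that by the fitted fold changes. The 3 counts correspond to 0.160 CPM over the muscle libraries and 0.0380 CPM over the nerve libraries, so the bound is reached at a smaller fold for genes lower in muscle.

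The direction also varied with level. Genes were placed in bins by the mean of the 2 tissues' mean CPM, a value set mostly by the higher tissue. CPM here is on the TMM scale, so genes higher in muscle reach the upper bins at a smaller share of counts. Bins on CPM of the library total are not given. Under 1 CPM, 4.52% of 2321 genes were called higher in muscle and 27.3% lower. This bin can hold genes that passed the filter through vein or repaired libraries. From 1 to 10 CPM, 17.6% of 3996 genes were higher and 44.6% lower. From 10 to 100 CPM the directions were close, with 38.97% of 7367 genes higher and 36.7% lower. From 100 to 1000 CPM, 57.9% of 2125 genes were higher and 27.1% lower. At 1000 CPM or more, 113 of 145 genes were higher (77.9%) and 24 lower (16.6%), and 108 and 22 of these passed the 2-fold threshold. The median log2 fold change was -1.27 in the lowest bin and 4.04 in the highest.

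**Figure D3:**
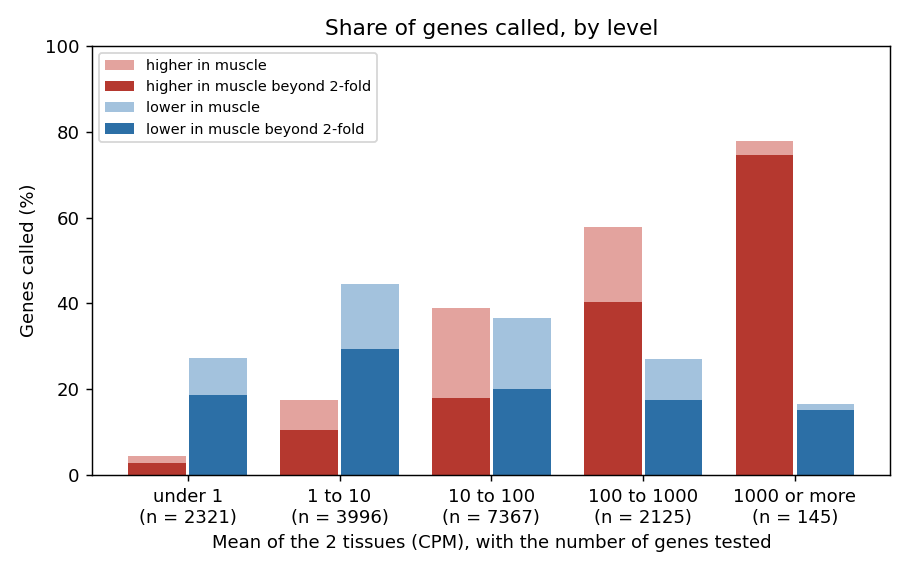
Share of genes called (%) higher in muscle (left bar of each pair) and lower (right bar) by edgeR at an adjusted p under 0.05, in 5 bins of the mean CPM of the 2 tissues, with the darker part of each bar showing calls beyond 2-fold. Lower calls lead in the bins under 10 CPM, and higher calls lead from 100 CPM up, reaching 77.9% in the top bin.

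The most counted genes of muscle were nearly all genes that nerve carried at a lower level. Of the 100 genes with the highest mean share in muscle, 96 were called higher there, 1 lower and 3 not at all, and 94 of the higher genes and the lower gene passed the 2-fold threshold. Their choice by level in muscle favours that direction. They took 58.6% to 59.5% of the counts in the muscle libraries and 8.09% to 9.17% in the nerve libraries. The 10 genes at the top of muscle took 27.7% ± 0.811 (SD, n = 3) of muscle counts and 3.31% ± 0.506 (SD, n = 5) of nerve counts.

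The most counted genes of nerve were mostly lower in muscle. Of the 100 genes with the highest mean share in nerve, 71 were called lower in muscle, 17 higher and 12 not at all, and 62 of the lower genes and 13 of the higher passed the 2-fold threshold. Their choice by level in nerve favours lower calls. They took 14.95% to 20.7% of the counts in the muscle libraries and 27.6% to 31.3% in the nerve libraries. The lists of 100 had 19 genes in common, which is 19% of each, and the lists of 10 had 3. All 3 of these were called higher in muscle.

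**Figure D4:**
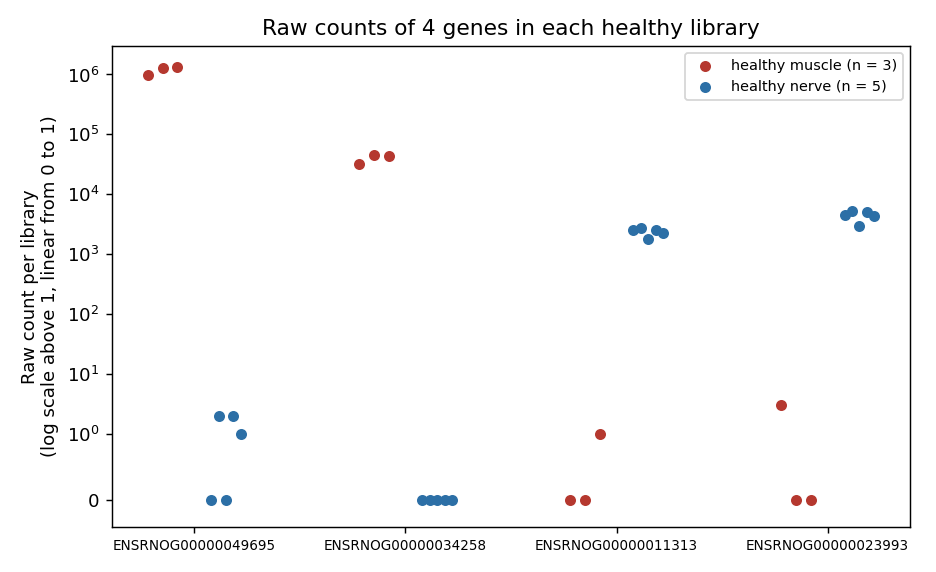
Raw count of 4 genes in each healthy muscle library (n = 3) and each healthy nerve library (n = 5), on an axis that is logarithmic above 1 and linear from 0 to 1. Both genes on the left have 31442 counts or more in each muscle library and at most 2 in each nerve library, and both on the right have 1774 counts or more in each nerve library and at most 3 in each muscle library.

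ENSRNOG00000049695 had the largest fold change among the 1833 genes called higher in muscle with at least 100 CPM and no overlap. It had 975158, 1268817 and 1356307 counts in muscle replicates 1 to 3, against 0, 2, 0, 2 and 1 counts in nerve replicates 1 to 5. All muscle libraries were thus high and all nerve libraries at or near 0. It was the most counted gene of muscle, and its log2 fold change was 21.36 ± 1.99 (SE, edgeR adjusted p = 1.27e-08). The SE was back-calculated from edgeR's F statistic and is approximate at so few nerve counts.

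ENSRNOG00000034258, next in that order, had 31442, 45053 and 42719 counts in the muscle libraries and 0 counts in each of the 5 nerve libraries. Its level in muscle was 6353 CPM ± 884 (SD, n = 3). It was at least 167302-fold higher in muscle, taking 3 counts over the nerve libraries as the limit that a count of 0 allows (edgeR adjusted p = 2.24e-06). This limit and the intervals below cover counting error only.

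Among the 938 genes called lower in muscle by the same rule, ENSRNOG00000011313 had 0, 0 and 1 counts in the muscle libraries, against 2568, 2684, 1774, 2499 and 2243 counts in the nerve libraries. Its level in nerve was 149 CPM ± 14.1 (SD, n = 5). The single muscle count gives a ratio of 2795 between nerve and muscle, with an exact 95% counting interval of 502 to 110412 (edgeR adjusted p = 1.43e-09). Without muscle replicate 3, which held that count, nerve was at least 579-fold higher, with 3 counts over the muscle libraries as the limit.

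ENSRNOG00000023993 had 3, 0 and 0 counts in the muscle libraries, against 4458, 5261, 2928, 5091 and 4396 counts in the nerve libraries. Its level in nerve was 279 CPM ± 44.0 (SD, n = 5). The ratio between nerve and muscle was 1752, with an exact 95% counting interval of 599.6 to 8498 (edgeR adjusted p = 2.61e-09). Without muscle replicate 1, which held the 3 counts, nerve was at least 1236-fold higher. For both genes nerve replicate 3 was the lowest of the nerve libraries. That the muscle and nerve libraries did not overlap was a condition for naming them.

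The most counted gene of nerve, singled out after its values were seen, was not among these 4. It had 677, 16 and 499 counts in muscle replicates 1 to 3, against 436758, 534701, 557997, 484913 and 792249 counts in nerve replicates 1 to 5. It was lower in muscle by edgeR's test, with a log2 fold change of -9.12 (edgeR adjusted p = 4.79e-05), and the muscle libraries ranged from 2.61 to 122 CPM. That log2 value was -10.00 without muscle replicate 1 and -8.60 without replicate 2. The 90 genes called more than 64-fold lower in muscle, with at least 100 CPM in nerve, together took 0.0279%, 0.0143% and 0.0212% of the counts in muscle replicates 1 to 3, against 12.2% to 15.5% in the nerve libraries. Muscle replicate 1 was the highest muscle library for 55 of the 90 and replicate 2 for 15.

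The nerve libraries were closer to each other in the genes of muscle. The 203 genes called more than 64-fold higher in muscle, with at least 100 CPM there, took 37.8%, 43.2% and 38.7% of the counts in the muscle libraries and 0.130% to 0.146% in the nerve libraries. Both groups were chosen on these libraries, so these levels are a description with no test.

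A smaller number of genes stood at nearly the same level in both tissues on the TMM scale. The 95% interval of the fold change, with its SE back-calculated from edgeR's F statistic, lay within 2-fold in either direction for 3455 genes (21.7% of those tested). Of these, 1301 were nevertheless called different from no change. The interval lay within 1.5-fold for 1245 genes (7.804%). Together the 3455 genes made up 9.23% ± 0.188 (SD, n = 3) of a muscle library and 22.2% ± 0.685 (SD, n = 5) of a nerve library.

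The healthy vein libraries, whose levels did not enter the contrast, were set beside both tissues. Genes called beyond 2-fold higher in muscle held 80.1% ± 0.419 (SD, n = 3) of a muscle library and 14.96% ± 1.12 (SD, n = 5) of a nerve library, and 17.7% ± 0.690 (SD, n = 3) of a vein library. Genes called beyond 2-fold lower in muscle held 2.17% ± 0.219 (SD, n = 3) of a muscle library and 43.1% ± 1.21 (SD, n = 5) of a nerve library, and 27.1% ± 0.665 (SD, n = 3) of a vein library. For 2522 of the 2766 genes higher in muscle (91.2%), the mean log2 CPM in vein lay nearer to nerve than to muscle. Vein was below both tissues for 1267 of the 2766 and above both for 72. For the 3489 genes lower in muscle, vein lay nearer to nerve for 2339 (67.0%) and nearer to muscle for 1150 (33.0%), and it was above both tissues for 996 and below both for 221.

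The composition of muscle and nerve differed far beyond the replicates. The share of counts assigned to different genes, taken as the summed absolute differences in share divided by 2, was 64.1% to 67.7% over the 15 pairs of a muscle and a nerve library. The same measure was 9.11% to 13.5% over the 3 pairs of muscle libraries and 5.06% to 10.9% over the 10 pairs of nerve libraries. Of the difference between the tissue means, 18 genes made up 50% on the muscle side and 342 genes on the nerve side.

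The spread within each tissue was small beside these differences, and its own difference between the tissues was not tested. The biological coefficient of variation was 26.1% among the 3 muscle libraries and 20.4% among the 5 nerve libraries, against 31.4% in the fit of all 23. The median SD of log2 CPM was 0.20 over the 8698 genes with at least 10 CPM in muscle and 0.16 over the 9307 such genes in nerve. A range of more than 4-fold between libraries was seen for 151 of these genes in muscle and 97 in nerve.

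**Figure D5:**
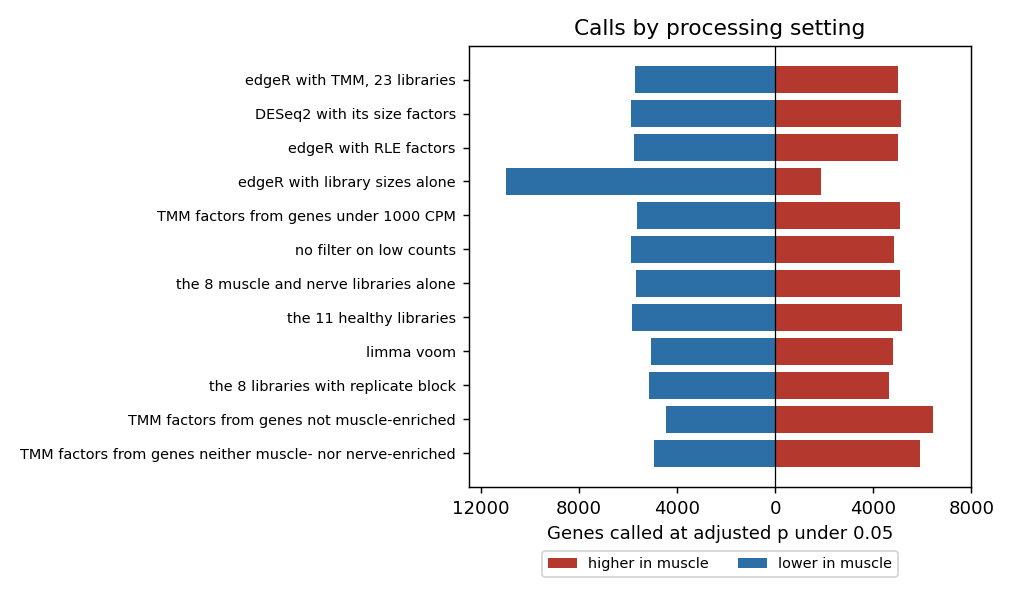
Genes called at an adjusted p under 0.05 under the processing settings listed, which do not include the left-out libraries, lower in muscle to the left of 0 and higher in muscle to the right. The plotted settings other than library sizes alone and both TMM settings on selected genes at the bottom lie within 4643 to 5189 higher and 5060 to 5887 lower calls, whereas library sizes alone gave 1868 and 10979.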

How the data were processed

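TRIzol was used for RNA extraction, poly-T beads for mRNA from 350 ng of total RNA, and libraries were non-directional, per the labels' protocols, so reads carry no strand and overlapping genes may share them. CASAVA and HISAT2 are named, per the submitters' processing notes. How reads were counted (tool, genome build, annotation, paralogs) is not given in the sources used here. The authors deposited raw read counts, 1 column per library, and all 23 columns matched a library title.

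Genes were tested with edgeR 4.0.16 in R 4.3.3, after filterByExpr (10 counts at least, 15 in total), with TMM factors and robust glmQLFit, by glmQLFTest and, for the 2-fold threshold, glmTreat. All groups shared 1 estimate of spread. Alternatives used DESeq2 1.42.0 and limma 3.58.1, and permutation tests scipy 1.17.1. The test was checked on simulated data. It recovered 59.7% of 67 genes changed 2-fold, 94.0% of 67 changed 4-fold and 98.5% of 66 changed 8-fold. The changed genes were drawn only from genes above a minimum level in nerve, so recovery of genes at lower levels was not checked. There were 9 false calls among 15754 unchanged genes. Far fewer genes were changed there than were called here, so the simulation does not check the scaling. Named genes needed an adjusted p under 0.05, at least 100 CPM in the higher tissue and no overlap, in order of log2 fold change. On the TMM scale, genes higher in muscle meet this CPM minimum at a smaller share of counts. The rule also asked for a gene symbol, and without symbols it allowed at most 2 identifiers in each direction. The comparison, the 39 gene lists (0 with a measured member) and the tests were chosen with earlier results of these data known.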

Additional observations from a re-analysis of the deposited data

How the results depend on the processing

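With library sizes alone, edgeR called 1868 genes higher in muscle and 10979 lower, and 1118 and 8154 beyond 2-fold, and 1487 genes called with TMM factors changed direction. The other settings run (DESeq2, RLE factors, TMM factors from genes under 1000 CPM, no filter, the 8 or 11 healthy libraries, limma voom, an adjusted p under 0.01 and each left-out library) kept all 4 counts within 1.5 times. They reversed none of the called genes. Both settings added after the data had been examined also stayed within 1.5 times. TMM factors from genes that are not muscle-enriched reversed 2 genes and gave 6442 higher and 4452 lower, and those from genes neither muscle- nor nerve-enriched gave 5899 and 4935, with a median shift of 0.23.

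With replicate numbers as a block in the 8 libraries, 4643 genes were higher and 5126 lower. Same-numbered muscle and nerve libraries deviated together at correlations of 0.00378, 0.0195 and 0.0278, and 1 of 3 muscle libraries correlated best with its own number. The numbers were therefore not taken as pairs. With so few libraries of unlike tissues, this check cannot exclude that same-numbered libraries share an animal.

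Leaving out 1 library at a time kept the direction of the 3 measures recomputed, and the other 5 measures of concentration and detection were not recomputed. The difference between muscle and nerve was 14.8 to 15.95 percentage points for the 10 most counted genes, 29.7 to 30.7 for the 100 most counted and -2297 to -2170 genes for detection. These designs cannot pass 0.05: the smallest exact permutation p was 0.0571 without a nerve library and 0.0952 without a muscle library. Counts without mitochondrial genes and all results per gene list were not run, because no identifier was paired with a symbol. Genes at 0 in 1 tissue limit the folds to bounds set by depth.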

Other observations

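Nerve replicate 3 stood apart from the other nerve libraries in more genes than any of them. Among 9307 genes with at least 10 CPM in nerve, 619 (6.65%) had 1 library far from the other 4 by Dixon's criterion, which chance alone gives in about 5% of groups. Replicate 3 was that library in 336 genes, above the others in 155 and below them in 181, and replicate 5 in 1.39% of the 9307. Without replicate 3, edgeR called 4930 genes higher in muscle and 5606 lower, against 5024 and 5716 with it. The most counted nerve gene also varied among the nerve libraries, at 5.77% of the counts in replicate 5 and 2.96% to 4.10% in the others.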
